A study of Arabidopsis thaliana with 6 samples.

Results

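The Arabidopsis genome encodes 10 respiratory burst oxidase homologues, RBOHA to RBOHJ, and their transcripts were measured in the dissected root meristem after 1 h of RGF1 peptide. The genes were taken by their locus identifiers, 10 of the 30424 genes counted in each library. RBOH proteins are plasma membrane NADPH oxidases. They pass electrons from NADPH in the cytosol to oxygen in the cell wall space, where superoxide forms and is converted to hydrogen peroxide. Their N-terminal part carries EF-hands that bind calcium, and several kinases phosphorylate it. In roots, RBOH activity is known for root hair growth, for lignin deposition at the Casparian strip and for the oxidative burst that follows recognition of microbes.

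RGF1 (root meristem growth factor 1) belongs to a family of sulfated peptide hormones that receptor kinases perceive. Both groups were Col-0 seedlings homozygous for a HYP2-GFP transgene in a wild-type background, 6 days old. The RGF1 group was held for 1 h in liquid MS medium with 100 nM RGF1, and the Mock group in the same medium with water. The meristem was cut out by its GFP fluorescence, each RNA sample pooled 20 root sections, and there were 3 libraries per group. The promoter that drives the GFP is not given, nor is it stated whether the replicates came from separate cultures, so p-values cover no more than the variation among these libraries, and that variation may be technical. By its title the study concerns control of meristem size by RGF1 and reactive oxygen signalling, and the comparison here asks which oxidase genes were expressed in the meristem and which differed after the peptide.

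Total counts per library lay between 5421243 and 9495012. Levels are given in CPM (counts relative to the library size, scaled by TMM) within a gene, and in CPM per kb of exon where genes are compared with each other. Of 6 markers of the meristem and stem cell niche, 5 had counts in every library, while WOX5, which marks the quiescent centre, had 2 counts in 1 Mock library and 0 elsewhere. Of the 8 markers of the Casparian strip endodermis, 2 had counts in every library, and their summed level was 16.7 to 26.6 CPM in the RGF1 libraries and 9.10 to 76.4 CPM in the Mock libraries. The 6 xylem markers, of which XCP2 was the largest part in each library, summed to 12.6 to 25.1 CPM in the RGF1 libraries. In the Mock libraries they summed to 32.5 to 50.7 CPM, with no overlap. Of the 6, 4 had counts in every library. Of the 4 that were tested 0 passed, and the part of differentiated tissue in the RBOH results was not tested.

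Upstream windows are shown for the 3 members with the highest levels, since RBOHD was the member whose groups did not overlap and RBOHC and RBOHF had similar levels in Mock. Each window is the 250 bases before the annotated start site, read 5′ to 3′ on the gene's strand of TAIR10.1, with any W-box (TTGACC or TTGACT on either strand, the motif bound by WRKY factors) in capitals. The RBOHD window is chr5:19396791-19397040 on the forward strand, that of RBOHC chr5:20762462-20762711 on the reverse strand and that of RBOHF chr1:23769524-23769773 on the forward strand.
RBOHD: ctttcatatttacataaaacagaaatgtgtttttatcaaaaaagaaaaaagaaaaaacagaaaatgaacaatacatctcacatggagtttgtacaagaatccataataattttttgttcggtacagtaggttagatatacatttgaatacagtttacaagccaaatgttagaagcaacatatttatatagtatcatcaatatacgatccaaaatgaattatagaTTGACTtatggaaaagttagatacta
RBOHC: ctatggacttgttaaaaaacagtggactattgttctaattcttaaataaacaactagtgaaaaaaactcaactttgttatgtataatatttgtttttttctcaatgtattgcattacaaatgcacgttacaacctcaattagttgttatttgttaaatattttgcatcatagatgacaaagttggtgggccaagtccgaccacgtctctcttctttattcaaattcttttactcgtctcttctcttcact
RBOHF: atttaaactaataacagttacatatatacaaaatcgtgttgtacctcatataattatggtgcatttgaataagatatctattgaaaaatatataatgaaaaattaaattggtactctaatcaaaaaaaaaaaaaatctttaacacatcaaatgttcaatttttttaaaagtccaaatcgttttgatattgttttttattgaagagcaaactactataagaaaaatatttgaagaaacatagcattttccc
The RBOHD window held 1 W-box, which began 26 bases before the start site, and the RBOHC and RBOHF windows held 0. Of the 10 RBOH windows 5 held a W-box, those of RBOHA, RBOHB, RBOHD, RBOHG and RBOHH, against 28.4% of 27443 windows of protein-coding genes. The G-box CACGTG, the GCC-box GCCGCC and the TGA motif TGACG were in 0 of the 10 RBOH windows and in 6.49%, 1.87% and 18.6% of all windows. These matches are letters in a window and say nothing of whether a factor binds there.

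Of the 10 genes 8 were detected and 2 were not. RBOHD, RBOHC and RBOHF made up most of the family's level, at 91.1% ± 5.42 of the summed CPM per kb in the RGF1 libraries and 82.1% ± 5.00 in the Mock libraries (SD, n = 3 each). RBOHA, RBOHB, RBOHE, RBOHG and RBOHI were detected at low levels. RBOHH and RBOHJ, the pair known for pollen tube growth, had 0 counts in the 6 libraries. A count of 0 allows up to 3 counts per library, or 0.313 to 0.565 CPM in the RGF1 libraries and 0.321 to 0.470 CPM in the Mock libraries, for counting error only. RNA came from whole sections, so fewer cells that express a gene and less RNA per cell cannot be told apart.

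**Figure D1:**
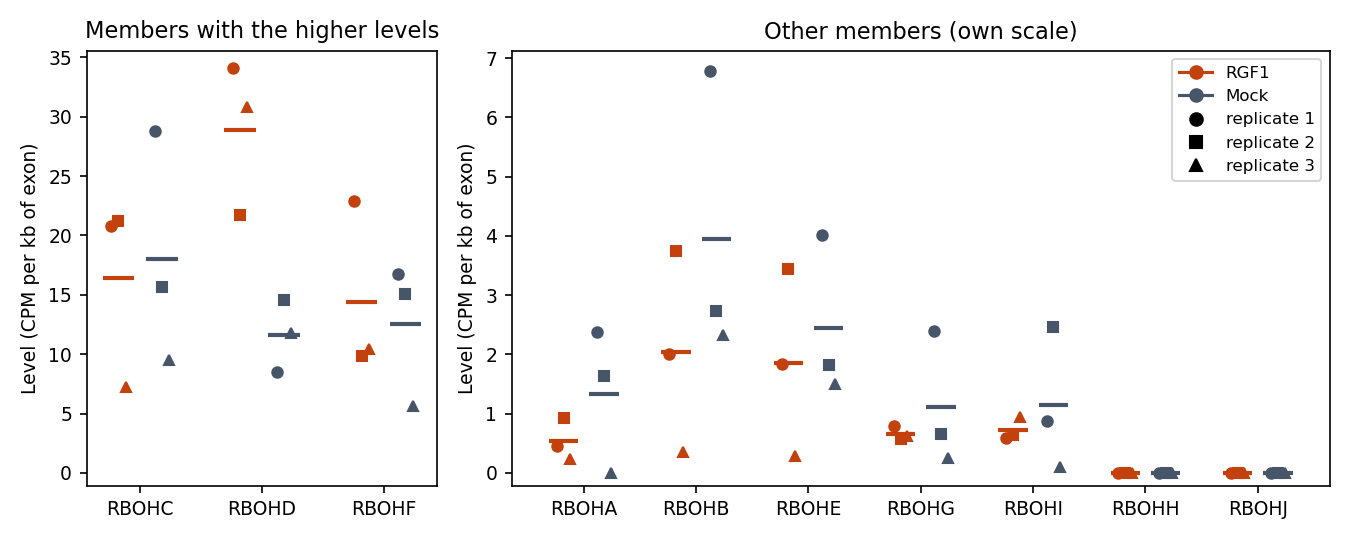
Level of each RBOH gene in CPM per kb of exon, with 1 point per library (marker shape gives the replicate number), a line at the mean of 3 libraries, RGF1 in orange and Mock in dark grey; the right panel has its own scale. The RGF1 points of RBOHD lie between 21.8 and 34.1 and its Mock points between 8.51 and 14.5, and the groups overlap for the other detected members.

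RBOHD (AT5G47910, chromosome 5, 19397041 to 19402061, 8 coding exons) encodes the oxidase of the immune oxidative burst. Its count was 1180, 534 and 590 in RGF1 replicates 1 to 3, and 286, 468 and 271 in Mock replicates 1 to 3. This corresponds to 123, 78.4 and 111 CPM in the RGF1 libraries, against 30.6, 52.4 and 42.5 CPM in the Mock libraries. Every RGF1 library lay above every Mock library. Within replicate numbers 1, 2 and 3 the level after RGF1 was 4.01, 1.50 and 2.61 times that of Mock, so that the difference was smallest in replicate 2. The summed xylem markers were also separate between the groups, in the other direction. They had 12.6, 25.1 and 17.1 CPM in the RGF1 libraries, against 50.7, 49.8 and 32.5 CPM in the Mock libraries. XCP2 gave 6.46, 15.6 and 12.2 of the RGF1 values and 37.3, 34.4 and 19.0 of the Mock values. XCP1 and IRX3 were also lower without overlap, the groups overlapped for CESA4, and VND6 and VND7 had 0 to 2 counts per library. The part of xylem in the RBOHD difference was not tested.

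RBOHD had a log2 fold change of 1.32 ± 0.30 (SE), or 2.49-fold, and was not called over all genes (edgeR adjusted p = 0.0839). Its unadjusted edgeR p of 0.000672 ranked 134 among the 16737 tested genes, of which 0.496% were called. The labels do not say what the replicate numbers mark, and they were taken to pair the libraries from these same counts. With a replicate block on these numbers RBOHD was called, at 1.32 ± 0.27 (SE) and edgeR adjusted p = 0.0286. That fit called 1.80% of the tested genes. DESeq2, which called 1.65% of 19060 genes with an adjusted p, also called it (adjusted p = 0.00677), while limma voom did not (adjusted p = 0.0806). The blocked call for RBOHD rested on pairs 1 and 3. Without pair 1 the log2 fold change was 0.98 (edgeR adjusted p = 0.136), and without pair 3 it was 1.29 (0.189). Without pair 2 it was 1.69 (0.00139).

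None of the other members was called. Among the 8 tested RBOH genes 0 passed in edgeR without the block, against the 0.496% over all tested genes, and 1, RBOHD, passed with it, against 1.80%. DESeq2 called 1 of the 8 and limma voom 0. RBOHD was the 1 gene of the 8 with an unadjusted p under 0.05, against 7.76% of all tested genes. It was also the 1 gene whose RGF1 libraries lay above the Mock libraries, a separation seen upward in 7.30% and downward in 6.18% of the tested genes. The median log2 fold change of the 8 genes was -0.53, against -0.01 over all tested genes, with 2 above 0 and 6 below, where 48.8% of all tested genes were above 0. RBOHH and RBOHJ did not pass the filter on low counts and are not among the 8.

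**Figure D2:**
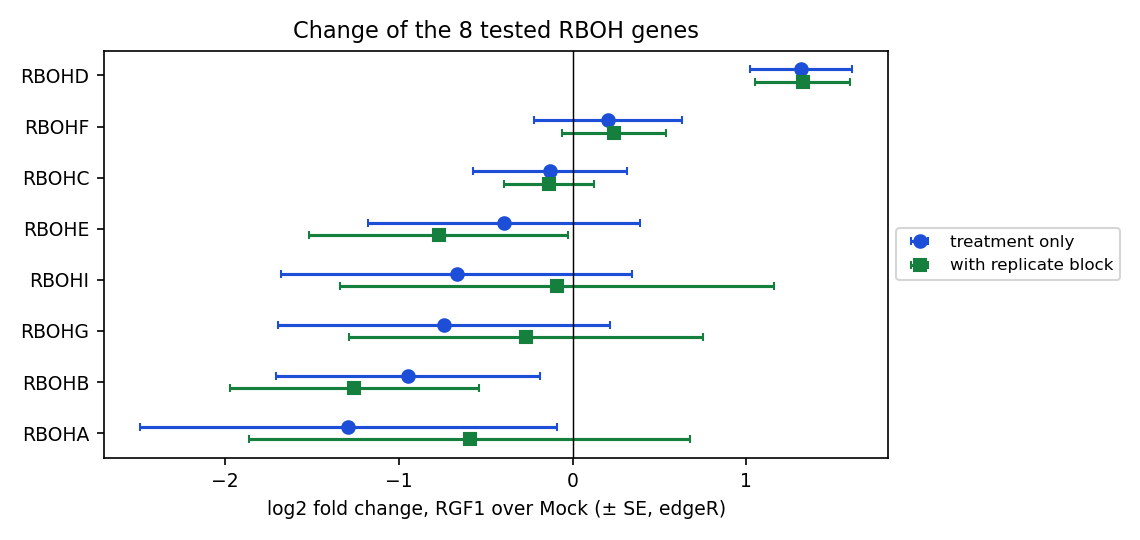
log2 fold change (RGF1 over Mock) of the 8 tested RBOH genes with its SE, from edgeR without the replicate block (circles) and with it (squares). RBOHD, at 1.32 in both fits, is the one gene whose bars lie above 0 in both, and the other 7 genes have values between -1.29 and 0.24.

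RBOHC (AT5G51060, named RHD2 in the reference, chromosome 5, 20757199 to 20762461) encodes the oxidase required for root hair growth, and it had the highest level of the family in Mock. It had 68.3, 69.7 and 23.9 CPM in the RGF1 libraries, against 94.6, 51.6 and 31.2 CPM in the Mock libraries. The groups overlapped, and replicate 3 was lowest in both. Its log2 fold change was -0.13 ± 0.44 (SE; edgeR adjusted p = 0.982), and -0.14 ± 0.26 with the block (adjusted p = 0.893). The direction turned to 0.38 without Mock replicate 1 and to 0.22 without RGF1 replicate 3. The 7 root hair markers, of which 3 had counts in every library, summed to 50.1, 59.2 and 41.4 CPM in the RGF1 libraries, against 84.8, 56.7 and 24.1 CPM in the Mock libraries. The order of the replicates in this sum was that of RBOHC in both groups. Of the single markers, COBL9, EXPA7 and RSL4 had that order in both groups. EXPA18 and PRP3 had it in the Mock libraries only, and RHD6 and LRX1 in neither group. RHD6 was the largest part of the sum in RGF1 replicate 1 and in Mock replicate 3. The part of root hair cells in the level of RBOHC was not tested.

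RBOHF (AT1G64060, chromosome 1, 23769774 to 23776984) encodes an oxidase that acts in lignin deposition at the Casparian strip and, with RBOHD, in stress responses. It had 91.6, 39.5 and 41.6 CPM in the RGF1 libraries, against 67.1, 60.2 and 22.6 CPM in the Mock libraries. The highest value was RGF1 replicate 1 and the lowest Mock replicate 3, and the groups overlapped. Its log2 fold change was 0.20 ± 0.43 (SE; edgeR adjusted p = 0.970), and 0.24 ± 0.30 with the block (adjusted p = 0.819). The Casparian strip markers summed to 16.7, 24.4 and 26.6 CPM in the RGF1 libraries, against 76.4, 17.0 and 9.10 CPM in the Mock libraries. Their sum had the order of RBOHF among the Mock libraries and not among the RGF1 libraries. The part of endodermis in the level of RBOHF was not tested. The direction for RBOHF turned to -0.30 without RGF1 replicate 1 and to -0.15 without Mock replicate 3.

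In Mock the order per length was RBOHC at 18.0 ± 9.84, RBOHF at 12.5 ± 6.00 and RBOHD at 11.6 ± 3.02 CPM per kb (SD, n = 3 each). These 3 ranges overlapped. Within libraries RBOHC was above RBOHF in 3 of 3 Mock libraries, and RBOHF above RBOHD in 2 of 3. RBOHD was separate from the next gene, RBOHB, with 8.51 CPM per kb in its lowest Mock library against 6.78 in the highest of RBOHB. In the RGF1 libraries RBOHD came first at 28.9 ± 6.41, before RBOHC at 16.4 ± 7.92 and RBOHF at 14.4 ± 7.38 CPM per kb. RBOHD exceeded RBOHC in the 3 RGF1 libraries, narrowly in replicate 2, at 21.8 against 21.2 CPM per kb. With coding length in place of exon length RBOHC and RBOHF changed places in the RGF1 libraries, at 19.9 and 20.3. Among the 20967 nuclear genes with a level above 0 in Mock, RBOHD stood at percentile 60.3, RBOHC at 70.9 and RBOHF at 62.0. In the RGF1 libraries RBOHD stood at percentile 80.4, RBOHC at 68.4 and RBOHF at 65.2.

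The less abundant members differed widely between replicates. RBOHB (AT1G09090, chromosome 1, 2932739 to 2936586), which acts in seed germination, had 52, 69 and 5 counts in the RGF1 libraries, against 171, 66 and 40 counts in the Mock libraries. RBOHE (AT1G19230, chromosome 1, 6643942 to 6649375), known from anther development, had 59, 78 and 5 counts in the RGF1 libraries, against 125, 54 and 32 counts in the Mock libraries. RGF1 replicate 3 was the lowest library for both genes, at 0.942 CPM each. Their log2 fold changes were -0.95 ± 0.76 and -0.39 ± 0.78 (SE), and edgeR gave adjusted p of 0.851 and 0.969.

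RBOHA (AT5G07390, chromosome 5, 2335895 to 2339913) had 14, 20 and 4 counts in the RGF1 libraries, against 70, 46 and 0 counts in the Mock libraries. RBOHG (AT4G25090, chromosome 4, 12878667 to 12883805) had 23, 12 and 10 counts in the RGF1 libraries, against 68, 18 and 5 counts in the Mock libraries. RBOHI (AT4G11230, chromosome 4, 6840473 to 6845627) had 18, 14 and 16 counts in the RGF1 libraries, against 26, 70 and 2 counts in the Mock libraries. For these 3 genes the Mock libraries held both the highest and the lowest count, and their log2 fold changes of -1.29 ± 1.20, -0.74 ± 0.95 and -0.67 ± 1.01 (SE) were within that spread. Their edgeR adjusted p were 0.880, 0.929 and 0.944. RBOHH (AT5G60010, chromosome 5, 24160270 to 24165052) and RBOHJ (AT3G45810, chromosome 3, 16832726 to 16837792) had no counts to compare. Of 4 pollen markers, VGD1, PPME1 and ANX2 had 0 counts in the RGF1 libraries and at most 1.04 CPM on average in the Mock libraries. The fourth, ANX1, averaged 17.2 ± 9.46 CPM in the RGF1 libraries and 15.8 ± 4.24 CPM in the Mock libraries (SD, n = 3 each).

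4 of the members overlap a gene on the opposite strand by their annotated ends, and the use of strand in counting is not given. RBOHE shares 133 bases with AT1G19240, which had 418 counts in the RGF1 libraries and 387 in the Mock libraries, against 142 and 211 for RBOHE itself. RBOHB shares 59 bases with RPT5B, RBOHG 37 bases with CHLM and RBOHA 169 bases with AT5G07380. RPT5B had 752 counts in the RGF1 libraries and 835 in the Mock libraries, against 126 and 277 for RBOHB. CHLM had 454 and 676, against 45 and 91 for RBOHG. AT5G07380 had 38 and 39, against 38 and 116 for RBOHA. RBOHG also lies near FSD1, RBOHE near AT1G05487, RBOHH near AT5G60000 and RBOHI near BTI2, each within 500 bases. RBOHC, RBOHD and RBOHF overlap no annotated gene and have none within that distance. The coding sequences of the 10 genes were 52.3% to 80.5% identical over 45 pairs in 1 alignment. RBOHH and RBOHJ were the closest pair, with a longest identical run of 40 bases, and no other pair shared a run of more than 26 bases.

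RBOHD was ordered by treatment, with every RGF1 library above every Mock library. The sum of the other members had the same order of replicates in both groups, which no other tested member had on its own. RBOHC, for example, was highest in replicate 2 among the RGF1 libraries and in replicate 1 among the Mock libraries. Summed over the 9 genes other than RBOHD, the level was 49.4, 40.4 and 20.1 CPM per kb in RGF1 replicates 1 to 3, against 62.0, 40.1 and 19.3 CPM per kb in Mock replicates 1 to 3. In both groups the sum was highest in replicate 1 and lowest in replicate 3, and RBOHC and RBOHF make up most of it. RGF1 over Mock within numbers 1, 2 and 3 gave 0.797, 1.01 and 1.04 for the sum. For the 7 genes other than RBOHC, RBOHD and RBOHF, summed, it gave 0.346, 1.00 and 0.582. Replicate 3 was the lowest library in both groups for 4 of the 8 tested members, RBOHA, RBOHB, RBOHC and RBOHE, against 16.1% of all tested genes.

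**Figure D3:**
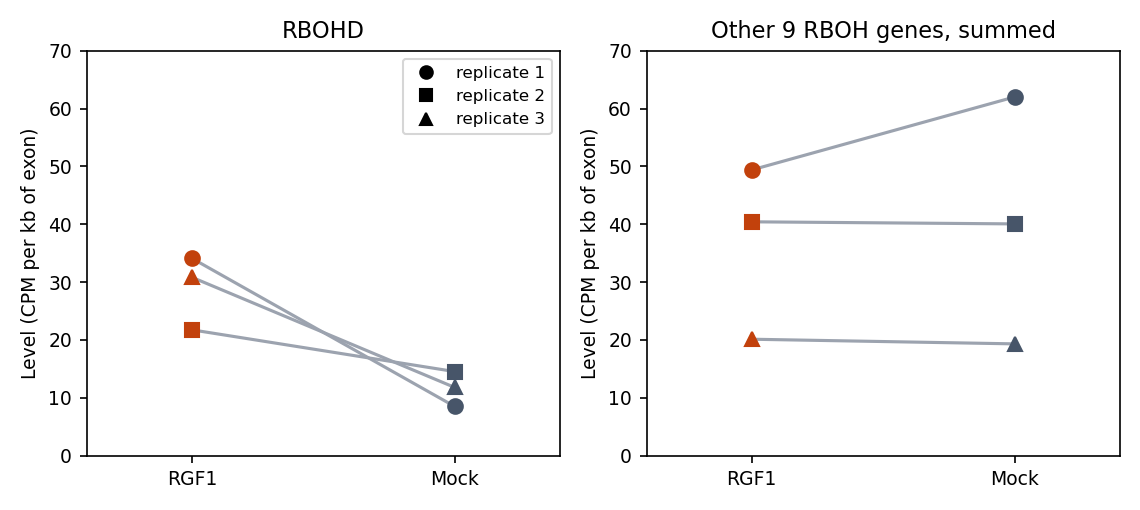
Level in CPM per kb of exon of RBOHD (left) and of the other 9 RBOH genes summed (right) in the RGF1 and Mock libraries, with lines that join libraries of the same replicate number. RBOHD is higher after RGF1 in each pair, by 4.01, 1.50 and 2.61 times, while the sum of the others lies at 0.797, 1.01 and 1.04 times Mock.

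RBOHD accordingly took a larger share of the family after RGF1 in each pair, but the groups overlapped. Its share of the summed CPM per kb was 40.9%, 35.0% and 60.5% in the RGF1 libraries, against 12.1%, 26.6% and 37.9% in the Mock libraries. Mock replicate 3 thus had a larger share than RGF1 replicate 2. The share of RBOHC was 24.4% ± 9.92 in the RGF1 libraries and 33.3% ± 6.52 in the Mock libraries, and that of RBOHF 21.3% ± 5.82 and 23.2% ± 4.75 (SD, n = 3 each).

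**Figure D4:**
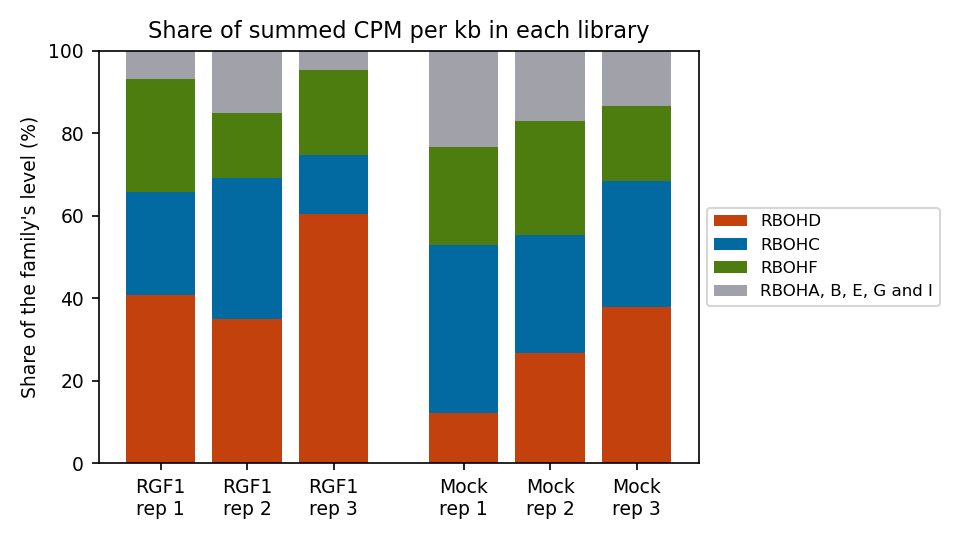
Share of the family's summed CPM per kb that each of RBOHD, RBOHC, RBOHF and the 5 low members took in each library, in percent. RBOHD takes 35.0% to 60.5% in the RGF1 libraries and 12.1% to 37.9% in the Mock libraries.

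The log2 ratio between a pair of genes within a library depends little on how libraries are scaled where counts are high. Where counts are low it also depends on the prior count. RBOHD was set against each of the 7 other tested members in this way. The log2 ratio of RBOHD to RBOHF was 0.42, 0.98 and 1.41 in the RGF1 libraries, against -1.12, -0.20 and 0.90 in the Mock libraries. The mean difference was 1.08, the value was higher after RGF1 in 3 of 3 pairs, and the groups overlapped (exact permutation p = 0.2, two-sided). For RBOHC the log2 ratio was 0.84, 0.17 and 2.20 in the RGF1 libraries, against -1.62, 0.02 and 0.44 in the Mock libraries, with a mean difference of 1.46 (exact permutation p = 0.2). The difference was above 0 for the 7 members tested, from 1.08 for RBOHF to 2.56 for RBOHB. The 7 ratios share RBOHD, which had the highest log2 fold change of the tested members, so their signs are not separate results. RBOHB was the 1 member for which the groups did not overlap (exact permutation p = 0.1, the smallest that 3 against 3 libraries allow). For RBOHA, RBOHE, RBOHG and RBOHI the exact permutation p was 0.4, 0.3, 0.2 and 0.4. With a prior count of 0.5 in place of 2, the difference for RBOHA was 1.14 in place of 1.64 (exact permutation p = 0.7). That for RBOHG was 1.51 (exact permutation p = 0.3), and p was unchanged for the other members. RBOHA had 0 counts in Mock replicate 3, and RBOHB and RBOHE had 5 counts each in RGF1 replicate 3. Within replicate numbers the ratio was higher after RGF1 in 3 of 3 pairs for RBOHB, RBOHC, RBOHF and RBOHG, and in 2 of 3 pairs for RBOHA, RBOHE and RBOHI. With a smallest possible p of 0.1, this test could not pass 0.05 for any member.

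**Figure D5:**
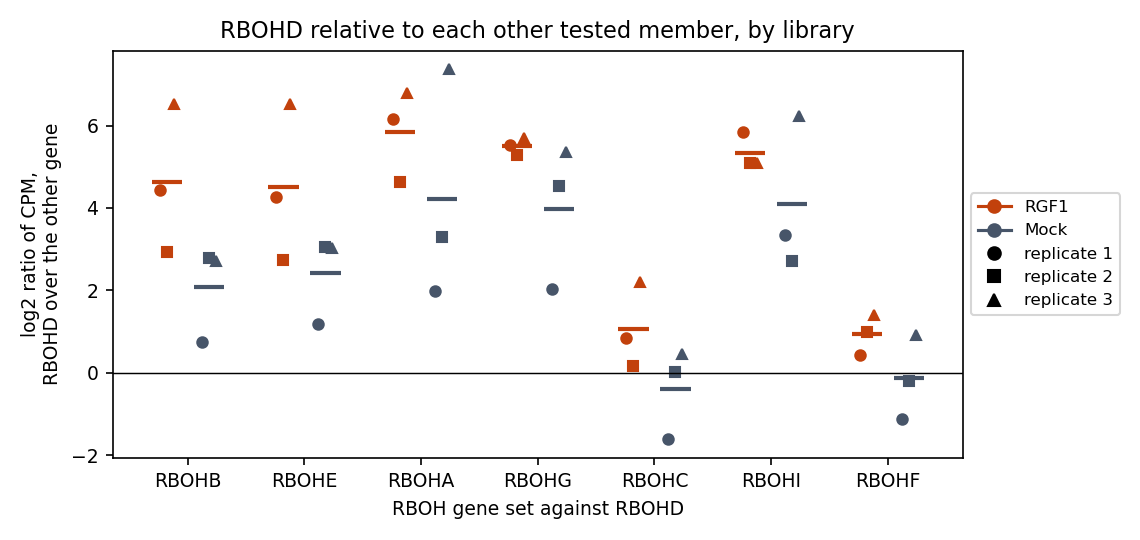
log2 ratio of CPM of RBOHD over each other tested RBOH gene, with 1 point per library, lines at the means, RGF1 in orange and Mock in dark grey. The mean is higher in RGF1 for each gene, by 1.08 to 2.56, and the groups are separate for RBOHB. RBOHD is shared by all the ratios, so they are not separate results.

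Genes linked to RBOH proteins were counted from lists of kinases, ROP GTPases, receptors, superoxide dismutases and ferric reductase oxidases. Of 14 tested kinases and calcium sensors that act on RBOH proteins 0 were called, 8 were above 0 and 3 had an unadjusted p under 0.05, with a median log2 fold change of 0.03. Over all tested genes 0.496% were called, 48.8% were above 0 and 7.76% had an unadjusted p under 0.05. BIK1, the kinase that phosphorylates RBOHD after recognition of microbial patterns, had 22.1, 6.75 and 11.5 CPM in the RGF1 libraries, against 7.61, 4.48 and 1.72 CPM in the Mock libraries. It was higher in each pair, the groups overlapped, and the log2 fold change was 1.54 ± 0.66 (SE; edgeR adjusted p = 0.597). The calcium-dependent kinases CPK5 and CPK6, of which CPK5 phosphorylates RBOHD, had log2 fold changes of -0.51 ± 0.24 and -0.66 ± 0.30 (SE; edgeR adjusted p of 0.641 and 0.631). CIPK26, a kinase that acts on RBOHF, had -1.21 ± 0.63 (SE; adjusted p = 0.702).

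Of 11 tested receptors and G-protein subunits that act upstream of RBOH proteins 0 were called without the block and 1, BAK1, with it, against 0.496% and 1.80% of all tested genes. BAK1, the co-receptor of FLS2 and other immune receptors, had 257, 272 and 243 CPM in the RGF1 libraries, against 182, 147 and 110 CPM in the Mock libraries. Every RGF1 library lay above every Mock library. The log2 fold change was 0.81 ± 0.25 (SE; edgeR adjusted p = 0.294), and with the block 0.84 (edgeR adjusted p = 0.0293). BAK1 was no longer called when the block lacked pair 2 (edgeR adjusted p = 0.0743) or pair 3 (0.278). DORN1, the receptor of extracellular ATP, which is known to phosphorylate RBOHD, had 49.5, 55.0 and 51.2 CPM in the RGF1 libraries, against 88.9, 96.4 and 75.9 CPM in the Mock libraries. Its groups were separate in the other direction, with a log2 fold change of -0.75 ± 0.25 (SE; edgeR adjusted p = 0.376). GSO1, the receptor of the Casparian strip pathway, had -0.65 ± 0.35 and AGB1, the G-protein beta subunit, 0.40 ± 0.30 (SE; edgeR adjusted p of 0.721 and 0.841).

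The 6 tested genes of the ROP GTPase module, which includes activators of RBOHC in root hairs, held 0 called genes in edgeR with and without the block, DESeq2 and limma voom. Of the 6, 3 were above 0 and 0 had an unadjusted edgeR p under 0.05. ROP2 had a log2 fold change of -0.42 ± 0.31 (SE; edgeR adjusted p = 0.841). Superoxide dismutases, which convert superoxide to hydrogen peroxide, held 0 called genes of 7 tested by the same tools. Of these, 0 had an unadjusted edgeR p under 0.05, and the median log2 fold change was -0.02. MSD2, also listed, had 2 counts in Mock replicate 2 and 0 elsewhere, and was not tested. Whether the listed dismutases act on the superoxide that RBOH proteins make was not tested. FSD1, an iron superoxide dismutase whose gene lies 494 bases from RBOHG, had -1.10 ± 0.87 and CSD3 -0.48 ± 0.44 (SE; edgeR adjusted p of 0.848 and 0.878). Of the 8 ferric reductase oxidases, which are related to RBOH proteins in their membrane part, 2 passed the filter on low counts. FRO3 had 45.6 ± 38.7 CPM in the RGF1 libraries and 68.7 ± 35.2 CPM in the Mock libraries (SD, n = 3 each; edgeR adjusted p = 0.914).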

How the data were processed

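The deposited tables hold raw counts per gene for 30424 genes in each of 6 libraries, made by the authors. Per the submitters' processing notes, TopHat2 2.1.1, HTSeq and DESeq2 were used with the TAIR10 build; the sources used here do not give settings, annotation release or strand use. Library totals lay between 5421243 and 9495012 counts. The RNA had been amplified from 50 ng before library preparation, per the labels' protocols.

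From these counts, R 4.3.3 with edgeR 4.0.16 gave TMM factors, the filterByExpr filter (16737 genes tested), the quasi-likelihood F test of RGF1 against Mock without covariates and the Benjamini-Hochberg adjustment, with a threshold of 0.05. log2 CPM used a prior count of 2. DESeq2 1.42.0 and limma 3.58.1 (voom) were alternatives, with other normalizations and filters, a replicate block and each library or pair left out. Same-numbered libraries deviated together from their group means (r = 0.177, 0.214 and 0.299). For different numbers r was -0.166 to -0.0433, but the 2 sets of values are tied, since deviations within a group cancel out. The numbers were taken to pair the libraries from the data, and the blocked fit used the same counts. The labels do not say that a number marks a shared plate or day. No pair of libraries agreed within sampling noise.

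Positions, lengths and upstream windows came from TAIR10.1 (RefSeq). The reference gives RBOHE, RBOHG, RBOHH, RBOHI and RBOHJ only their locus identifiers as symbols, and their letters follow the list of loci. Scripts were tested on simulated data. The edgeR fit without the block recovered 10% of genes changed 2-fold, 70% of those changed 4-fold, 76% at 8-fold and 92% at 16-fold. It called 135 genes there, of which 11 were false. A gene that was not called may thus still have changed. A planned comparison of proteins was not made, and coding sequences were aligned in its place. The members and lists were chosen with earlier results of these data known. The genes named were the 10 RBOH genes, up to 4 per list with the smallest p, overlapping or near genes, and the 5 genes most correlated with RBOHD and with RBOHC.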

Additional observations from a re-analysis of the deposited data

How the results depend on the processing

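Over all genes 83 were called, against 222 with no filter, 315 with DESeq2 and 302 with the replicate block; leaving out 1 library gave 40 to 118. With the block and without pair 1, 2 or 3 it was 264, 351 and 155. Among the RBOH genes 0 were called, and 1, RBOHD, was called with no filter (log2 fold change 1.31), with DESeq2 (1.31), with the block (1.32) and with the block without pair 2 (1.69). Leaving out 1 library gave RBOHD 1.13 to 1.51, with edgeR adjusted p from 0.0897 to 0.387, and no called RBOH gene. Over the 16 alternatives RBOHD lay between 0.98 and 1.69 and kept its direction. Of the uncalled members RBOHB kept its direction over the 16 alternatives (-2.17 to -0.31), and the other 6 tested members changed direction under some of them. Leaving out 1 library gave -0.44 to 0.38 for RBOHC, -1.18 to 0.17 for RBOHE, -0.30 to 0.48 for RBOHF, -1.20 to 0.51 for RBOHG, -1.21 to 0.55 for RBOHI and -2.19 to 0.22 for FSD1. With the block and without pair 1, RBOHA was at 0.51, RBOHC at 0.040, RBOHG at 0.48 and RBOHI at 0.23; RBOHI was at 1.06 without pair 2 and RBOHF at -0.076 without pair 3. The cause was not tested. RBOHA, RBOHG and RBOHI rest on 2 to 70 counts per library, with 0 in 1 library for RBOHA, and their log2 fold changes have the largest SEs of the 8 tested members in the fit without the block.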

Other observations

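The genes most correlated with RBOHD in log2 CPM over the 6 libraries were GER1 and SUR1, with Pearson r of 0.996 each. TIF3B1 (0.992), AT3G46610 (0.990) and AT5G27650 (0.988) came next. A high r is a shared pattern over libraries and not a like level. None of these genes was called (edgeR adjusted p from 0.234 to 0.761). Of the 14121 genes compared, 48 had an r above 0.95 with RBOHD. Those most correlated with RBOHC were AT3G54100 (0.998), PMP (0.996), AT2G46170 (0.990), AT2G39530 (0.989) and AT4G02180 (0.986), with 65 genes above 0.95. The libraries are shared by both genes of each pair, and the treatment and the depth vary with them, so these values are a description of 6 libraries.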
